A study of Mus musculus with 9 samples.

Results

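The genes described here act in the cell's answer to amino acid shortage: the ATF4 stress pathway, serine and asparagine synthesis, amino acid carriers and cytosolic tRNA synthetases. They were chosen by symbol from a list of 32, of which 30 have a row among the 22942 of the RNA table. Aars and Wars were not matched to a row, so their RNA is not analysed here. Aars is still counted in the search of sequences near gene starts. A mean of at least 1 FPKM over both groups (a level corrected for transcript length and library size) was reached by 29 of the 30, and Trib3 stayed below it. The cells were mouse bone marrow mononuclear cells of strain B6.SJL (CD45.1). MLL-AF9 cells had received the retrovirus MSCVneo-MLL-AF9, which carries the leukemia fusion of MLL with AF9, together with MSCVpuro. Control cells had received MSCVneo and MSCVpuro, so both groups carry the MSCVpuro virus. The labels list 3 polyA RNA libraries per group, but the deposited table holds 1 pooled value per group with a p-value and a q-value from the authors' own comparison. No spread between libraries, depth or per-library value can therefore stand beside a level, and no test was computed anew. The extraction protocol speaks of duplicate samples per genotype, so it is not known which libraries entered the pooled values. Age and sex of the animals, and whether the libraries of a group came from separate animals, are not given by the labels.

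When an amino acid runs short, uncharged tRNA activates the kinase GCN2, which phosphorylates the initiation factor eIF2alpha. General translation then slows while the mRNA of the transcription factor ATF4 is translated more, so that ATF4 activity is set largely after transcription. ATF4 dimers with C/EBP family proteins bind composite elements at genes for amino acid synthesis, import and tRNA charging. Aminoacyl-tRNA synthetases join each amino acid to its tRNA and are needed for all protein synthesis. Leukemic blood cells are known to depend on this supply, and asparaginase, an enzyme that depletes asparagine, is used against acute lymphoblastic leukemia.

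The composite element was searched as TGATGNAA, on both strands, in windows from 250 bases before to 50 bases after each RefSeq gene start (GRCm38.p6), to show which members carry the letters of the known C/EBP-ATF sequence. Windows were matched for 25 of the 32 members, Mars through its synonym. The element was present for 9 of these 25 (36.0%), against 1219 of 27025 genes with a window (4.51%). The list was drawn from pathways where this element is known, so its higher share is no independent result. Each is printed here with 10 bases on either side, 5′ to 3′ on the strand on which it reads TGATGNAA, with the element in capitals.
Chac1, chr2:119351039-119351066, minus strand: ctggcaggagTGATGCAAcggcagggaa
Trib3, chr2:152344029-152344056, plus strand: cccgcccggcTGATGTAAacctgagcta
Asns, chr6:7693215-7693242, minus strand: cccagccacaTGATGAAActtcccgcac
Gars, chr6:55037961-55037988, minus strand: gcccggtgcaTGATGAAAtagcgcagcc
Iars, chr13:49682127-49682154, minus strand: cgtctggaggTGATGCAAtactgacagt
Tars, chr15:11399656-11399683, plus strand: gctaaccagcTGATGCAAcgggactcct
Yars, chr4:129189896-129189923, plus strand: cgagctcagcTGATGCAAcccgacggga
Aars, which has no RNA value here, held the element at 2 places and is not printed. Slc7a11 also held it at 2 places, on opposite strands and 11 bases apart. The stretch of 100 bases directly before its start is shown on the gene's strand, so that the second element reads as the reverse complement.
Slc7a11, chr3:50443614-50443713, minus strand: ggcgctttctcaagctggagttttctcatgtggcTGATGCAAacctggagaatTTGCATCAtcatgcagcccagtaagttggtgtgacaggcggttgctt
The element lay before the annotated start in Chac1, Asns, Gars, Tars and Slc7a11, and in the first transcribed bases of Trib3, Iars and Yars. A match says only that these letters are present. Binding of ATF4 was not measured.

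The leukocyte markers Ptprc and Coro1a were high in both groups, at 142 and 861 FPKM in MLL-AF9 and 257 and 1458 FPKM in control cells. The RNA levels of cell type markers differed between the groups. The 6 late granulocyte markers summed to 21091 FPKM in MLL-AF9 cells against 185711 FPKM in controls, and all 6 were lower in MLL-AF9 by the authors' q-value at the threshold of 0.05. The same held for all 4 B lymphoid markers (sums of 32.9 and 573 FPKM in MLL-AF9 and control), all 4 erythroid markers (10.7 and 206 FPKM) and all 3 T and NK markers (1.20 and 28.98 FPKM). The 3 progenitor markers Cd34, Kit and Flt3 summed to 251 FPKM in MLL-AF9 cells against 39.4 FPKM in controls, with Cd34 and Flt3 called higher. Most of the MLL-AF9 sum was Flt3, at 160 FPKM against 5.75 FPKM in controls. Kit was slightly lower in value, at 12.9 FPKM in MLL-AF9 cells against 14.3 FPKM in controls. The 5 proliferation markers summed to 747 FPKM in MLL-AF9 cells against 503 FPKM in controls, none of them called. The 4 early granulocyte markers summed to 4093 FPKM in MLL-AF9 cells against 2754 FPKM in controls, none of them called. They differed in direction: Elane, Prtn3 and Ctsg were higher in value in MLL-AF9. Mpo was lower, at 627 FPKM in MLL-AF9 cells against 927 FPKM in controls. Of 5 measured monocyte and macrophage markers 2 were called lower, and of 2 megakaryocyte markers 1. Of 3 stroma markers 1 was called higher, Pdgfrb, at 12.1 FPKM in MLL-AF9 cells against 0.519 FPKM in controls. The stroma markers Col1a1 and Cxcl12 were lower in value in MLL-AF9 and were not called. No marker was listed at 0 in either group. In bulk RNA, fewer cells of a type and less RNA per cell cannot be told apart, and the part of these shifts in the values below was not tested.

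Most members stood higher in MLL-AF9 than in control cells by a small margin, and few passed the authors' test. A gene was called when its q-value in the authors' deposited table was under 0.05 and its mean at least 1 FPKM. Of the 29 members above that mean, 1 rose, the stress gene Ddit4, and 1 fell, the serine synthesis enzyme Phgdh. Among all 11538 genes above the mean, 10.3% were called, 5.13% higher and 5.2% lower, so the members' share of calls was not above the background. At an unadjusted p under 0.05 in the authors' deposited table, 7 members were higher and 2 lower, against 19.8% of all genes, 11.5% higher and 8.32% lower. At a q-value under 0.1, 2 members were higher and 2 lower, against 13.2% of all genes, 6.94% higher and 6.26% lower. The log2 change, the log2 ratio of (FPKM + 1) between MLL-AF9 and control cells, had a median of 0.59 over the 29 members and 0.29 over all genes. It was above 0 for 24 of 29 members (82.8%) and for 68.7% of all genes. After quantile normalization these shares were 79.3% and 56.0%, and the median was 0.37 for members and 0.08 for all genes. The scale understates the change of genes with low values.

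**Figure D1:**
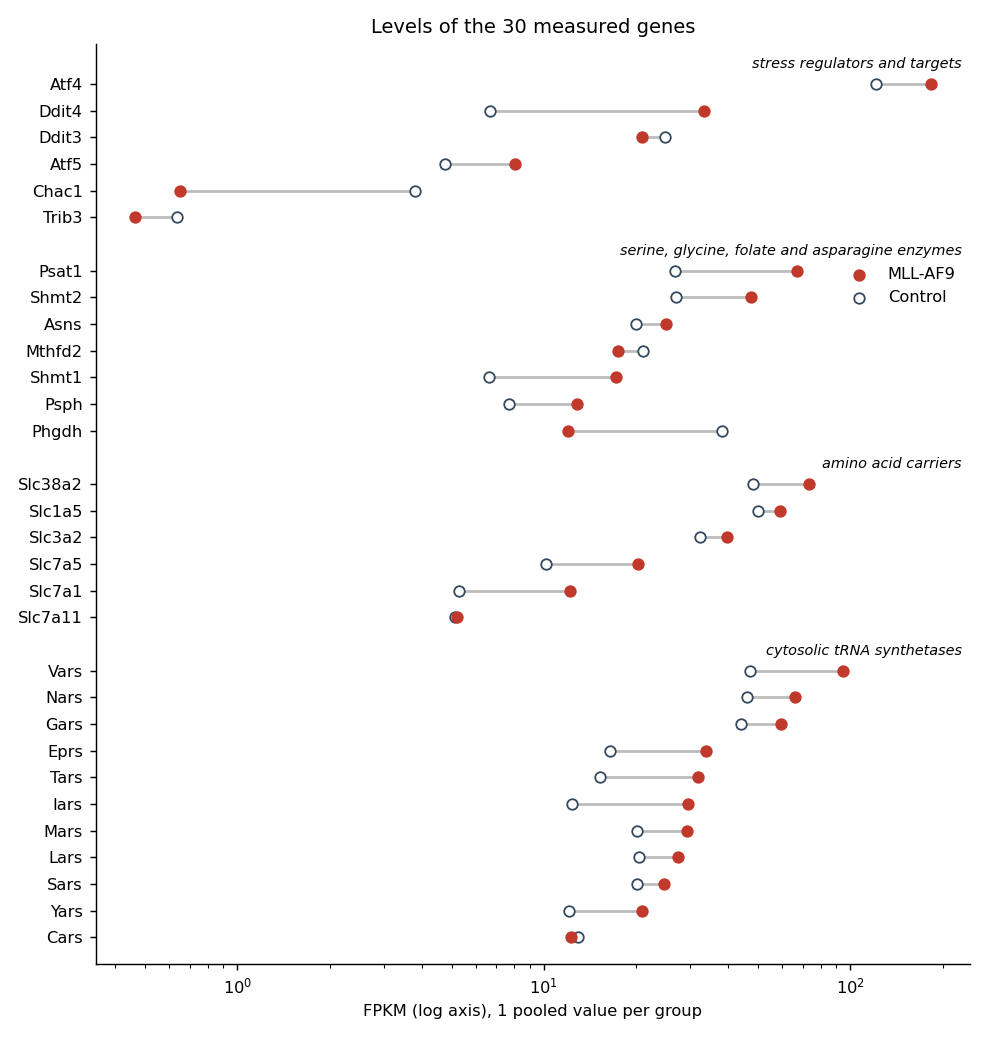
Level of each of the 30 measured genes as FPKM on a log axis, 1 pooled value per group, with MLL-AF9 as filled and control as open points, ordered within each functional group by the MLL-AF9 level. Atf4 has the highest level in both groups, Chac1 and Phgdh lie to the left in MLL-AF9, and Ddit4 lies far to the right.

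The stress regulators did not move as a block. Atf4, the central transcription factor, was the most abundant member, at 183 FPKM in MLL-AF9 cells against 121 FPKM in controls. This placed it at rank 534 of 11538 genes in MLL-AF9 and rank 786 in control cells, and its 1.51-fold difference did not pass (q = 0.584 in the authors' deposited table). Atf5, a related factor that is also controlled by translation, was at 8.08 FPKM in MLL-AF9 cells against 4.77 FPKM in controls (q = 0.577 in the authors' deposited table). Ddit3, which encodes the pro-apoptotic factor CHOP, was at 21.0 FPKM in MLL-AF9 cells against 24.8 FPKM in controls (q = 0.880 in the authors' deposited table). RefSeq places Ddit3 and Mars over each other, and the library kit keeps no strand, so reads from their overlap cannot be told apart.

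Ddit4 was the member with the largest rise. It encodes REDD1, an inhibitor of the growth kinase complex mTORC1 that is induced by several stresses and by glucocorticoids. It was at 33.2 FPKM in MLL-AF9 cells against 6.67 FPKM in controls, a 4.98-fold difference and a log2 change of 2.16 (p = 0.000209 and q = 0.00400 in the authors' deposited table). Only 1.803% of all genes had a larger log2 change, and its rank by level was 3200 in MLL-AF9 and 7780 in control cells. No TGATGNAA was found in the Ddit4 window.

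The CHOP pathway targets Chac1 and Trib3 were low in both groups. Chac1, an enzyme that breaks down glutathione, was at 0.652 FPKM in MLL-AF9 cells against 3.81 FPKM in controls, a value 5.85-fold lower in MLL-AF9 that lay just outside the call (p = 0.00776 and q = 0.0661 in the authors' deposited table). Its log2 change was -1.54 and became -2.38 with a pseudocount of 0.1. Trib3, a pseudokinase that restrains ATF4 activity, was at 0.465 FPKM in MLL-AF9 cells against 0.635 FPKM in controls (q = 0.859 in the authors' deposited table). Of all members, Trib3 and Chac1 had the lowest levels in MLL-AF9 cells.

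**Figure D2:**
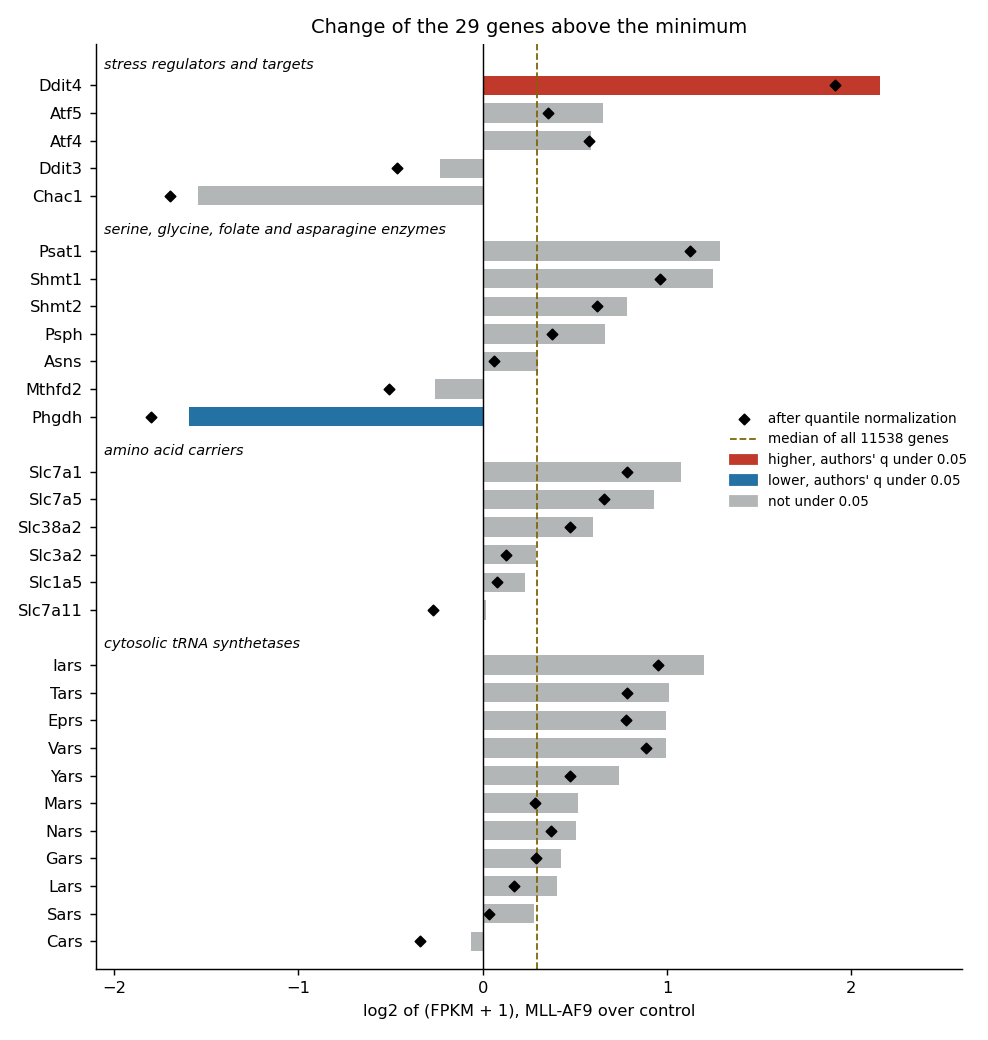
Log2 change of the 29 genes above the minimum, MLL-AF9 over control, as bars by functional group, with the value after quantile normalization as diamonds and the median of all genes as a dashed line. Ddit4 at 2.16 and Phgdh at -1.59 are the coloured bars that passed the authors' test, and 10 of 11 synthetases lie to the right of 0.

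The enzymes of serine synthesis differed in direction by value along one route, and only Phgdh was called. Phgdh, which catalyses the first committed step from the glycolytic intermediate 3-phosphoglycerate, was at 12.0 FPKM in MLL-AF9 cells against 38.2 FPKM in controls. It fell by 1.59 on the log2 scale and was 3.18-fold lower (p = 0.00341 and q = 0.0355 in the authors' deposited table), and 95.4% of all genes had a higher log2 change. Psat1, the aminotransferase of the second step, was at 66.9 FPKM in MLL-AF9 cells against 26.8 FPKM in controls. This 2.50-fold higher value missed the call (p = 0.0114 and q = 0.0868 in the authors' deposited table). Psph, the phosphatase that releases serine, was at 12.8 FPKM in MLL-AF9 cells against 7.71 FPKM in controls (q = 0.593 in the authors' deposited table). By level per length, Psat1 stood highest in MLL-AF9, at 5.57 times the level of Phgdh. Psph and Phgdh were close there, at 12.8 and 12.0 FPKM, and without per-library values their order cannot be told. In control cells the order was Phgdh, Psat1 and Psph, with Psat1 at 0.701 times the level of Phgdh. RefSeq also names a pseudogene of Phgdh and places Psph and Cct6a over each other. Whether reads were shared with these was not tested.

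The enzymes that pass the serine carbon on to folate were mostly higher in value, none of them called, where 10.3% of all genes were. Shmt1, the cytosolic serine hydroxymethyltransferase, was at 17.1 FPKM in MLL-AF9 cells against 6.64 FPKM in controls, 2.58-fold higher (p = 0.0263 and q = 0.154 in the authors' deposited table). Shmt2, its mitochondrial counterpart, was at 47.2 FPKM in MLL-AF9 cells against 27.0 FPKM in controls (p = 0.0570 and q = 0.251 in the authors' deposited table). Shmt2 stood above Shmt1 in both groups, by 2.76 times in MLL-AF9 and 4.07 times in control cells. Mthfd2, the mitochondrial folate dehydrogenase that follows Shmt2, was at 17.5 FPKM in MLL-AF9 cells against 21.0 FPKM in controls (q = 0.837 in the authors' deposited table). Asns, asparagine synthetase and a textbook ATF4 target, was at 25.0 FPKM in MLL-AF9 cells against 20.05 FPKM in controls. Its log2 change of 0.30 was close to the median of all genes (q = 0.803 in the authors' deposited table).

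**Figure D3:**
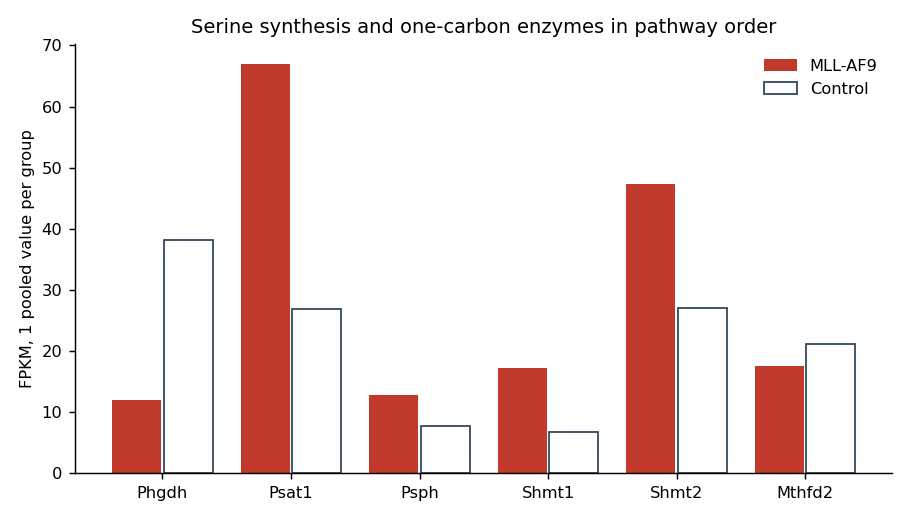
FPKM of Phgdh, Psat1 and Psph, the serine synthesis enzymes in pathway order, followed by Shmt1, Shmt2 and Mthfd2, with MLL-AF9 as filled and control as open bars, 1 pooled value per group. Psat1 is the tallest bar in MLL-AF9 cells at 66.9 FPKM, and Phgdh the tallest in control cells at 38.2 FPKM.

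None of the 6 amino acid carriers was called, where 10.3% of all genes were. Their log2 changes ran from 0.02 to 1.08, with a median of 0.44, or 0.30 after quantile normalization. All 6 were above 0 as deposited, 5 after quantile normalization and 3 after centring, where the shares of all genes were 68.7%, 56.0% and 50%. After centring the share above 0 thus equalled that of all genes, while the median of the carriers was 0.15. Of those below 0 after centring, Slc3a2 (-0.0064) and Slc1a5 (-0.064) lay close to it. The medians of all genes were 0.29 as deposited and 0.08 after quantile normalization. Slc7a1, the carrier of arginine and lysine, was at 12.2 FPKM in MLL-AF9 cells against 5.27 FPKM in controls, 2.32-fold higher (p = 0.0210 and q = 0.132 in the authors' deposited table). Slc7a5, the light chain of the LAT1 carrier of large neutral amino acids, was at 20.3 FPKM in MLL-AF9 cells against 10.2 FPKM in controls (p = 0.0617 and q = 0.264 in the authors' deposited table). Slc3a2, the heavy chain that LAT1 and several other light chains share, was at 39.6 FPKM in MLL-AF9 cells against 32.2 FPKM in controls (q = 0.796 in the authors' deposited table). The heavy chain therefore stood at 1.95 times the level of Slc7a5 in MLL-AF9 and 3.17 times in control cells.

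Slc7a11, the light chain of the cystine and glutamate exchanger, also pairs with Slc3a2. It was at 5.21 FPKM in MLL-AF9 cells against 5.13 FPKM in controls (q = 0.988 in the authors' deposited table). This was the smallest log2 change of the members in size, at 0.02, and it became -0.27 after quantile normalization and -0.28 after centring on the median of all genes. Slc38a2, a sodium-coupled carrier of small neutral amino acids, was the most abundant carrier in MLL-AF9, at 73.3 FPKM against 48.0 FPKM in control cells (q = 0.573 in the authors' deposited table). Slc1a5, the glutamine carrier ASCT2, was at 58.9 FPKM in MLL-AF9 cells against 50.1 FPKM in controls (q = 0.848 in the authors' deposited table). It was the most abundant carrier in control cells.

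The cytosolic tRNA synthetases were higher in value in MLL-AF9 with 1 exception, and none was called, where 10.3% of all genes were. Of 11 measured members, 10 had a log2 change above 0, as deposited and after quantile normalization, and 9 after centring on the median of all genes. The shares of all genes above 0 were 68.7% as deposited, 56.0% after quantile normalization and, by construction, 50% after centring. Their median was 0.52 as deposited and 0.37 after quantile normalization, against 0.29 and 0.08 for all genes. Together they summed to 429 FPKM in MLL-AF9 cells against 267 FPKM in controls, a ratio of 1.61. At an unadjusted p under 0.05 in the authors' deposited table, 3 of the 11 were higher and 0 lower, against 11.5% and 8.32% of all genes.

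The 3 were Iars, Tars and Eprs. Iars, which charges isoleucine, was at 29.6 FPKM in MLL-AF9 cells against 12.3 FPKM in controls, 2.41-fold higher (p = 0.0139 and q = 0.1001 in the authors' deposited table). Tars, for threonine, was at 31.8 FPKM in MLL-AF9 cells against 15.3 FPKM in controls (p = 0.0443 and q = 0.213 in the authors' deposited table). Eprs, which charges both glutamate and proline, was at 33.7 FPKM in MLL-AF9 cells against 16.4 FPKM in controls (p = 0.0422 and q = 0.207 in the authors' deposited table). In the order of levels among the 11, Iars held place 6 in MLL-AF9 and place 10 in control cells, Tars places 5 and 8, and Eprs places 4 and 7. The 3 were picked for their rise, so their higher places in MLL-AF9 are no further result. Places can also turn on near ties, such as Iars at 29.6 FPKM and Mars at 29.3 FPKM in MLL-AF9.

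Vars, the valine enzyme, was the most abundant synthetase of the list in both groups, at 94.6 FPKM in MLL-AF9 cells against 47.0 FPKM in controls (p = 0.0623 and q = 0.266 in the authors' deposited table). Nars, for asparagine, followed at 65.9 FPKM in MLL-AF9 cells against 46.1 FPKM in controls (q = 0.365 in the authors' deposited table). Gars, for glycine, was next at 59.4 FPKM in MLL-AF9 cells against 44.0 FPKM in controls (q = 0.696 in the authors' deposited table). These 3 thus held the same places in both groups. In control cells they stood at 44.0 to 47.0 FPKM, and without per-library values it cannot be said whether such neighbours differ.

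The other 5 ran from a log2 change of -0.06 for Cars to 0.74 for Yars. Yars, for tyrosine, was at 20.8 FPKM in MLL-AF9 cells against 12.1 FPKM in controls, and Mars, for methionine, at 29.3 FPKM in MLL-AF9 cells against 20.2 FPKM in controls. Lars, for leucine, was at 27.3 FPKM in MLL-AF9 cells against 20.4 FPKM in controls. Sars, for serine, was at 24.6 FPKM in MLL-AF9 cells against 20.1 FPKM in controls, and its log2 change of 0.28 became -0.015 after centring. Cars, for cysteine, was the exception, at 12.3 FPKM in MLL-AF9 cells against 12.9 FPKM in controls (q = 0.962 in the authors' deposited table). The q-values of the other 4 ran from 0.436 for Yars to 0.777 for Sars in the authors' deposited table.

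Members with and without the composite element near the start overlapped in their change. The 7 members with the element and a mean above the minimum were Chac1, Asns, Slc7a11, Gars, Iars, Tars and Yars. Their log2 changes ran from -1.54 for Chac1 to 1.20 for Iars, with a median of 0.42. The 16 members whose window held no element ran from -1.59 for Phgdh to 2.16 for Ddit4, with a median of 0.63. Sequence outside the window was not searched, so these members may hold an element elsewhere. Both called members are among these 16, the larger set, and 2 calls are too few to compare the sets. Of all genes, 10.3% were called. Iars and Tars, with the sequences printed above, had values more than 2-fold higher in MLL-AF9, whereas Chac1 with the same TGATGCAA had a value 5.85-fold lower and Slc7a11 with a pair of elements was level.

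Among other genes of eIF2alpha and ATF4 signalling, Ppp1r15a and Atf3 rose. Among 9 measured regulators of eIF2alpha phosphorylation, 1 rose and 0 fell, against 5.13% and 5.2% of all genes, with a median log2 change of 0.55 against 0.29 for all genes. The gene was Ppp1r15a, whose product GADD34 directs the phosphatase that reverses eIF2alpha phosphorylation, at 56.6 FPKM in MLL-AF9 cells against 9.37 FPKM in controls (q = 0.000104 in the authors' deposited table). Eif2ak4, which encodes the amino acid sensor GCN2, was at 8.40 FPKM in MLL-AF9 cells against 3.96 FPKM in controls (q = 0.0694 in the authors' deposited table). Of 12 other known ATF4 and CHOP targets and partners above the mean, 1 rose and 0 fell, against 5.13% and 5.2% of all genes. Of these 12, 4 had a log2 change above 0, where 68.7% of all genes did. Atf3, a stress-induced factor that also acts as an early response gene, was at 28.6 FPKM in MLL-AF9 cells against 4.91 FPKM in controls (q = 0.00152 in the authors' deposited table). The median of these 12 was -0.41 against 0.29 for all genes, and the stress-induced gene Nupr1 was at 7.09 FPKM in MLL-AF9 cells against 22.6 FPKM in controls (p = 0.0483 and q = 0.225 in the authors' deposited table). Another 8 of that list of 20 were below the mean, with Fgf21 listed at 0 in both groups.

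Endoplasmic reticulum chaperones and sensors, which answer to misfolded protein, were mostly higher in value. All 15 measured had a log2 change above 0 as deposited, where 68.7% of all genes did, all 15 after quantile normalization (56.0% of all genes) and 14 after centring (50%). Of the 15, 2 rose and 0 fell, against 5.13% and 5.2% of all genes, with a median of 0.65 against 0.29 for all genes. The sensor Atf6 was at 30.6 FPKM in MLL-AF9 cells against 10.1 FPKM in controls (q = 0.0232 in the authors' deposited table). Ern1, which encodes the sensor IRE1, was at 22.9 FPKM in MLL-AF9 cells against 7.20 FPKM in controls (q = 0.0226 in the authors' deposited table). The main chaperone Hspa5 was at 367 FPKM in MLL-AF9 cells against 182 FPKM in controls without passing (q = 0.286 in the authors' deposited table).

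**Figure D4:**
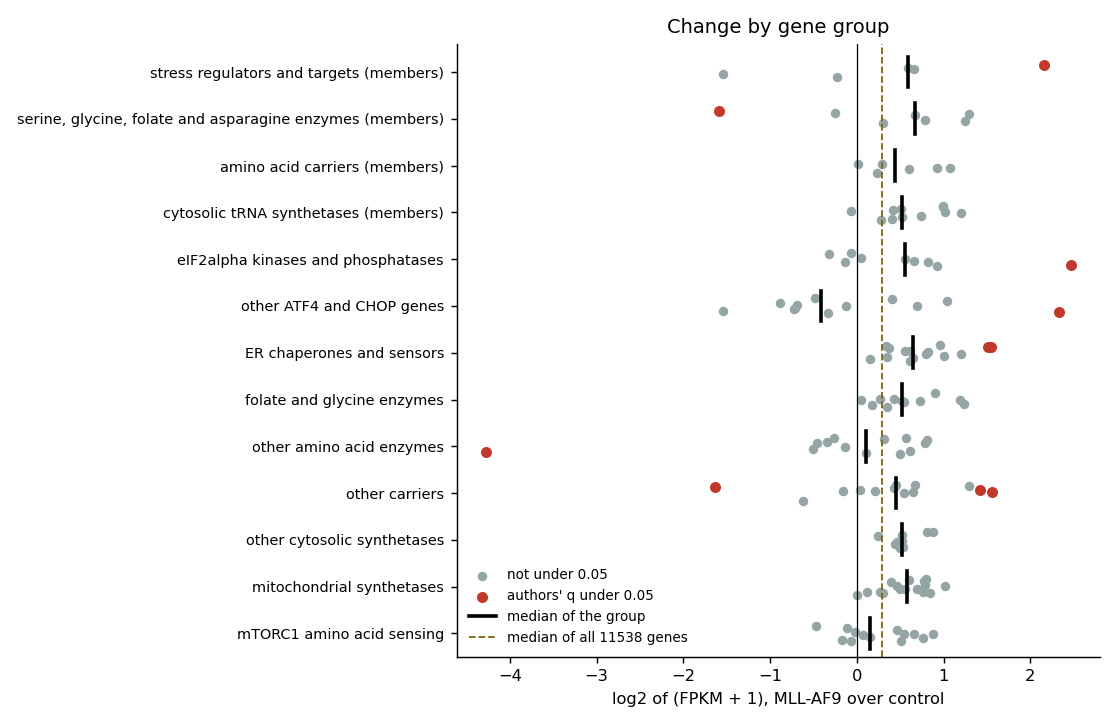
Log2 change, MLL-AF9 over control, of each gene above the minimum in the 4 groups of members and 9 related lists, with the group median as a bar and the median of all genes as a dashed line. Group medians lie between -0.41 for other ATF4 and CHOP genes and 0.67 for the serine, glycine, folate and asparagine enzymes, and called genes are the larger points.

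The remaining synthetases were also higher in value as deposited, none of them called. Of 9 further cytosolic synthetases and scaffold proteins, 9 had a log2 change above 0, where 68.7% of all genes did. Of these 9, 0 were called, against 10.3% of all genes, and the median was 0.52 against 0.29 for all genes. No member of this list had an unadjusted p under 0.05 in the authors' deposited table. Of 16 mitochondrial synthetases, 16 had a log2 change above 0 as deposited, 12 after quantile normalization and 13 after centring, where the shares of all genes were 68.7%, 56.0% and 50%. None was called, 1 was higher at an unadjusted p under 0.05 in the authors' deposited table, and the median was 0.58. Among 11 further folate and glycine enzymes 0 were called, with 2 higher at an unadjusted p under 0.05 in the authors' deposited table and a median of 0.52. Over all genes, 10.3% were called, 11.5% were higher at that p, and the median was 0.29. In lists this short, 0 calls cannot be told from the share of all genes.

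Of 13 further amino acid carriers above the mean, 2 rose and 1 fell, against 5.13% and 5.2% of all genes, and their median was 0.45 against 0.29 for all genes. Slc38a1, a glutamine carrier related to Slc38a2, was at 38.8 FPKM in MLL-AF9 cells against 13.8 FPKM in controls, 2.80-fold higher (q = 0.000133 in the authors' deposited table). Slc25a13, the mitochondrial aspartate and glutamate carrier, was at 14.7 FPKM in MLL-AF9 cells against 4.34 FPKM in controls (q = 0.00417 in the authors' deposited table). Slc43a1, a carrier of branched-chain amino acids, was 5.01-fold lower, at 1.10 FPKM in MLL-AF9 cells against 5.53 FPKM in controls (q = 0.00153 in the authors' deposited table).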

How the data were processed

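PolyA RNA was sequenced as single reads from TruSeq libraries, per the labels' protocols. The submitters' processing notes name build mm9 and the tools TopHat 1.4.1, Cufflinks 1.3.0, Bowtie 0.17.2, CASAVA 1.8.2 and MACS 1.4; roles and settings are not given there. The deposited table gives 1 value per gene and group, taken as FPKM from the named tools and the values, since the header names no unit. The p-value and q-value columns are the authors' own, per the file headers, with the test not stated. Depth per library is unknown.

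Log2 changes used a pseudocount of 1 FPKM. The row of S100a9 was dropped, since its control value of 0 comes with a p-value of 1. limma was planned for per-library values and could not be used. Members were matched by symbol; of the other lists, Lamtor1 was matched through a synonym, and Eif2ak2, Pdia4, Glud1, Qars, Tars2 and Depdc5 were among those not matched. All members are named, with up to 3 called genes of each other list by smallest q-value; other genes of those lists that are named were chosen after their values were seen. Members and lists were chosen with earlier results of these data known. Sequences are from RefSeq (GRCm38.p6). The 5hmC regions, in mm9, were not used here, since no mm9 gene positions were at hand. RefSeq gene bodies of 11 of 32 members overlap another gene, and reads there may be shared. The calculation was tested on simulated data. Python 3.11.15, numpy 2.4.6, pandas 2.3.3 and matplotlib 3.10.9 were used.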

Additional observations from a re-analysis of the deposited data

How the results depend on the processing

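The median log2 change of the members was 0.59, 0.55 without a minimum, 0.59 with a minimum mean of 5 FPKM or a pseudocount of 0.1, 0.37 after quantile normalization and 0.29 after median centring. The called members numbered 2 with q under 0.05, with or without the minimum mean. With q under 0.01 there was 1, Ddit4, so 0 were lower. With q under 0.1 there were 4, of which 2 were higher and 2 lower, and with an unadjusted p under 0.05 there were 9, of which 7 were higher and 2 lower. Among single genes the sign changed for Slc7a11 (-0.27 after quantile normalization and -0.28 after centring) and, after centring, for Slc3a2 (-0.0064), Slc1a5 (-0.064) and Sars (-0.015), all uncalled. Centring lowers every change by the median of all genes, 0.29, by construction, whereas the shift under quantile normalization depends on the level. No test was recomputed under either. Leaving out each library was not run, since the table holds no values per library. No paired analysis was possible because the table holds 1 pooled value per group.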

Other observations

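Amino acid breakdown and sensing gave 1 further large difference. Of 13 enzymes of glutamine, proline, aspartate, arginine and branched-chain metabolism above the mean, 0 rose and 1 fell, against 5.13% and 5.2% of all genes, with a median log2 change of 0.10 that became -0.14 after quantile normalization. The gene was Arg2, the mitochondrial arginase, at 0.420 FPKM in MLL-AF9 cells against 26.5 FPKM in controls, 63.2-fold lower (q = 2.23e-09 in the authors' deposited table). The late granulocyte markers fell in the same comparison, and their part in the value of Arg2 was not tested. Slc7a1, which imports arginine, had a value 2.32-fold higher in MLL-AF9 without passing. Of 13 genes of amino acid sensing by mTORC1, the complex that REDD1 restrains, 0 were called, against 10.3% of all genes. Their median was 0.15, or -0.03 after quantile normalization. Beside both lists, the medians of all genes were 0.29 as deposited and 0.08 after quantile normalization. Sesn1, a stress-induced sestrin, was at 27.7 FPKM in MLL-AF9 cells against 14.6 FPKM in controls (p = 0.0488 and q = 0.227 in the authors' deposited table).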
